A study of Mus musculus with 12 samples.

Results

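Cells that run short of amino acids, or whose endoplasmic reticulum is overloaded with unfolded protein, phosphorylate the initiation factor eIF2, which lowers translation of most mRNAs but raises translation of the mRNA of the transcription factor Atf4. ATF4 then binds C/EBP-ATF response elements in genes for amino acid synthesis and uptake, redox balance and its own feedback control, a programme called the integrated stress response. Because ATF4 is controlled largely through translation, the level of its mRNA does not measure its activity. The 10 genes described here are Atf4, 2 further transcription factors of the response (Atf5 and Ddit3), 2 feedback or effector genes (Trib3 and Chac1), 3 enzymes of amino acid synthesis (Asns, Psat1 and Phgdh) and 2 amino acid transporters (Slc7a11 and Slc7a5). They were chosen by name from the 24470 genes of the count table, of which 15572 had enough reads to be tested. All but Chac1, 9 of the 10, were among those tested.

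RNA-seq was measured in whole mouse testes at embryonic stage E14.5, in 6 pools of control embryos (Nr2f2 f/f) and 6 pools of Nr2f2 cKO embryos (Wt1 CreER x Nr2f2 f/f), each pool made from 3 testes. Both genotypes carried the floxed Nr2f2 alleles, and dams of both received tamoxifen at E11.5 and E12.5, so the groups differed by the Cre. The Cre is driven from Wt1 and acts in somatic cells that express it, among them precursors of the interstitium, whereas the RNA came from all cells of the testis. The comparison asks which transcripts changed in the fetal testis after loss of NR2F2, an orphan nuclear receptor of interstitial cells.

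The targeted gene, Nr2f2, ran from 162.5 to 185.9 CPM (counts relative to library size) in control pools and from 50.2 to 118.6 CPM in cKO pools, so that its transcript was reduced and not absent in every cKO pool. Total counts per library ran from 7044531 to 39965574 in controls and from 7322959 to 59404778 in cKO pools. In 4 libraries, control replicate 1 (891 CPM) and cKO replicates 3, 5 and 6 (304, 507 and 433 CPM), the X-inactivation transcript Xist was above 100 CPM, whereas it was between 5.15 and 7.68 CPM in the other 8. Summed pregranulosa markers were also higher in these 4, at 315 CPM in the control and at 141, 207 and 193 CPM in the cKO pools, whereas the low-Xist pools were at 80.0 to 92.8 CPM in controls and 66.7 to 74.4 CPM in cKO. Xist is transcribed in XX cells, and these 4 pools, labelled as testis like the others, may hold tissue of XX gonads, which was not tested. For the members whose change moved, it is also given from the other 8 libraries (5 control, 3 cKO). Markers of Sertoli cells and of germ cells were present in every library, with summed levels of 7 Sertoli cell genes between 696 and 1209 CPM and of 7 germ cell genes between 1100 and 2033 CPM. In bulk samples, fewer cells of a type and less RNA per cell cannot be told apart.

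The core of the C/EBP-ATF response element, TGATGNAA or its reverse TTNCATCA, was searched on both strands of RefSeq promoters (GRCm38.p6, from 250 bases before to 50 after the start). It was in 1304 of 32851 promoters (3.97%), or in at least 1 promoter of 1219 of 27025 genes (4.51%). Of the 9 genes with a promoter in the table, 4 held it, namely Chac1, Slc7a11, Asns and Trib3, and the other 5 (Atf4, Atf5, Ddit3, Psat1 and Phgdh) did not. Such a match is a description of the letters and shows no binding. Windows around the 5 matches are shown first, because these 4 genes are classical ATF4 targets, followed by 100 bases upstream of the 2 genes that changed, Atf4 and Phgdh. All are written on the strand of the gene, with matches in capitals.
Chac1, chr2:119351012-119351111, plus strand: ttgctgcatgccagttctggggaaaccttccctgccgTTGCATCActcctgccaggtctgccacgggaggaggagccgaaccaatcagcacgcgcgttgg
Slc7a11, chr3:50443614-50443713, minus strand: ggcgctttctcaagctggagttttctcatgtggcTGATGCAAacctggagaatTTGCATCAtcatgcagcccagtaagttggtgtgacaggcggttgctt
Asns, chr6:7693210-7693309, minus strand: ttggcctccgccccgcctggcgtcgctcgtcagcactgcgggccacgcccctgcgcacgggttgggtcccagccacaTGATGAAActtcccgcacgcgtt
Trib3, chr2:152344029-152344058, minus strand: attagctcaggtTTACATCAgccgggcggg
Atf4, chr15:80255084-80255183, plus strand: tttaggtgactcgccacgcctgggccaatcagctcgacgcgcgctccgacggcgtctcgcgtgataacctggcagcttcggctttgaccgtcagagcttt
Phgdh, chr3:98339970-98340069, minus strand: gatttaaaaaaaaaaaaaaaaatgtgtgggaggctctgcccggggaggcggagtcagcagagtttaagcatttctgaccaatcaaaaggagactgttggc
The matches lay at -193 to -186 of Chac1, at -66 to -59 and -47 to -40 of Slc7a11, at -23 to -16 of Asns and at +15 to +22 of Trib3, counted from the start of the RefSeq promoter entry, which for Asns lies upstream of the gene's start in the count table.

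In cKO testes, transcripts of Atf4 and of Phgdh, the enzyme that opens serine synthesis, were lower, by 0.29 and 0.28 on the log2 scale. None of the 9 tested genes was called higher by edgeR or DESeq2, and none with a rise had an unadjusted p under 0.05. With edgeR's quasi-likelihood model and p-values adjusted over all tested genes (Benjamini-Hochberg), 2 of 9 were called lower at an adjusted p of 0.05. Of all tested genes 8.13% were called, 4.85% lower and 3.28% higher. At an unadjusted p under 0.05 stood 3 of the 9, with Ddit3 as the third, beside 25.2% of all genes. Phgdh was the only one of the 9 whose 6 cKO pools did not overlap the controls, a pattern seen in 5.52% of all genes. The median log2 fold change of the 9 was -0.10, within a range of -0.31 to 0.08, and 5 were negative and 4 positive. Over all tested genes the median was 0.00, with quartiles of -0.15 and 0.15.

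Among the transcription factors, Atf4 (Entrez 11911, mm10 chr15:80255184-80257545, plus strand), the effector that the pathway is named for, ranged from 89.4 to 134.9 CPM in controls (median 109) and from 86.1 to 94.1 CPM in cKO pools (median 92.1). The groups overlapped through control replicate 1, at 89.4 CPM, since the other 5 controls were at 107.96 CPM or above. The mean was 111 ± 14.95 CPM in controls and 90.7 ± 3.41 CPM in cKO (SD, n = 6 each). This was a log2 fold change of -0.29 (SE 0.08, 95% interval -0.47 to -0.12, edgeR adjusted p = 0.0409). The pools varied more in controls, with a coefficient of variation of 13.4%, than in cKO, with 3.76%. The call was close to the threshold. It was lost on leaving out any one library except control replicate 1, with adjusted p between 0.0579 and 0.0933, and without control replicate 1 it was -0.35 with an adjusted p of 0.00419. In the 8 libraries with low Xist the log2 fold change was -0.34 (edgeR adjusted p = 0.0472), and with Xist as a covariate in all 12 it was -0.24 and no longer passed (adjusted p = 0.0871).

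Atf5, a close relative of Atf4 that is likewise controlled by translation (Entrez 107503, chr7:44812256-44816658, minus strand), was at 15.3 to 20.4 CPM in controls (median 19.0) and at 18.3 to 20.03 CPM in cKO (median 18.9). The cKO pools lay within the control range, and the log2 fold change was 0.03 (SE 0.08, 95% interval -0.14 to 0.19, edgeR adjusted p = 0.859). Its highest pool was 1.33 times its lowest. Ddit3, which encodes the pro-apoptotic factor CHOP (Entrez 13198, chr10:127290793-127296288, plus strand), was at 5.56 to 8.72 CPM in controls (median 6.07) and at 4.56 to 5.88 CPM in cKO (median 5.22). The 3 lowest cKO pools were below every control and the other 3 overlapped them. Its log2 fold change was -0.31 (SE 0.13, 95% interval -0.60 to -0.03), which did not pass after adjustment (edgeR adjusted p = 0.159). In low-Xist libraries it was -0.45, with an adjusted p of 0.110. Atf5 overlaps Il4i1b and Nup62 on the other strand, and Ddit3 overlaps Mars1. The reads were counted by strand.

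Trib3, a pseudokinase that ATF4 induces and that dampens its activity (Entrez 228775, chr2:152337425-152344060, minus strand), was at 1.53 to 2.68 CPM in controls (median 1.91) and at 1.62 to 2.38 CPM in cKO (median 2.01). The groups overlapped fully, with a log2 fold change of 0.02 (SE 0.17, 95% interval -0.34 to 0.37, edgeR adjusted p = 0.963). The interval leaves room for a change of either sign as large as that of Atf4.

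Chac1, which breaks down glutathione (Entrez 69065, chr2:119351242-119354326, plus strand), was barely detected. Control pools held 7, 8, 10, 7, 5 and 2 counts, or 0.19, 0.33, 0.25, 0.33, 0.38 and 0.29 CPM. The cKO pools held 18, 7, 15, 19, 1 and 26 counts, or 0.65, 0.46, 0.43, 0.56, 0.14 and 0.44 CPM. Thus 5 cKO pools were above every control, and cKO replicate 5, with its single count (exact Poisson 95% interval 0.00344 to 0.756 CPM, which covers counting error only), was below all of them. It did not pass the filter on low counts and was not tested. With no filter its log2 fold change was 0.73 (SE 0.30, edgeR adjusted p = 0.180). In the low-Xist libraries, where it passed the filter, it was 0.89 (adjusted p = 0.0727), and without cKO replicate 5 it was 0.83 (adjusted p = 0.0666). Chac1 was called in none of these fits, and since its higher cKO pools helped it past the filter, these values are a description.

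Of the synthesis enzymes, Phgdh (Entrez 236539, chr3:98313171-98339969, minus strand) ranged from 83.4 to 99.7 CPM in controls (median 90.8) and from 68.5 to 83.4 CPM in cKO (median 74.3). All 6 cKO pools were below all 6 controls, although the highest cKO pool, at 83.35 CPM, lay just under the lowest control, replicate 1 with its high Xist, at 83.41 CPM. The mean fell from 91.2 ± 5.22 to 75.1 ± 5.59 CPM (SD, n = 6 each), a log2 fold change of -0.28 (SE 0.06, 95% interval -0.42 to -0.14, edgeR adjusted p = 0.0153). The call was kept on leaving out each of the 12 libraries in turn, with adjusted p between 0.00593 and 0.0430. In the 8 libraries with low Xist the log2 fold change was -0.22, and no longer passed (adjusted p = 0.0829). With Xist as a covariate in all 12 it was -0.23 and passed (edgeR adjusted p = 0.0189). The lowest cKO pools were those with high Xist, replicates 3, 5 and 6, at 70.4, 68.5 and 73.8 CPM. The part of Xist status in these levels was not tested.

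Asns, which makes asparagine from aspartate (Entrez 27053, chr6:7675171-7693182, minus strand), ranged from 66.1 to 135.7 CPM in controls (median 105) and from 78.3 to 112.6 CPM in cKO (median 97.4). The cKO pools lay inside the control range, with a log2 fold change of -0.10 (SE 0.14, 95% interval -0.41 to 0.21, edgeR adjusted p = 0.684). It was -0.30 in the low-Xist libraries (adjusted p = 0.158), -0.21 without control replicate 1 (adjusted p = 0.183) and -0.01 without control replicate 5 (adjusted p = 0.981), and was not called in any of them. Psat1, the enzyme after Phgdh in serine synthesis (Entrez 107272, chr19:15905123-15925059, minus strand), was at 59.9 to 93.1 CPM in controls (median 76.4) and at 65.5 to 89.3 CPM in cKO (median 76.7). Its means were nearly equal, at 77.0 ± 11.2 and 76.9 ± 9.62 CPM (SD, n = 6 each), with a log2 fold change of 0.00 (SE 0.11, 95% interval -0.23 to 0.23, edgeR adjusted p = 0.999). So Phgdh passed the test and the next enzyme of its pathway did not. Whether the changes of Phgdh and Psat1 differ from each other was not tested.

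Both transporters varied widely from pool to pool. Slc7a11, the cystine and glutamate exchanger (Entrez 26570, chr3:50364936-50443613, minus strand), was at 2.59 to 7.17 CPM in controls (median 3.93) and at 2.07 to 6.43 CPM in cKO (median 3.56). Its highest pool in controls was replicate 1 (7.17 CPM) and in cKO replicate 3 (6.43 CPM), both with high Xist, whose part in these levels was not tested. The log2 fold change was -0.19 (SE 0.29, 95% interval -0.80 to 0.43, edgeR adjusted p = 0.711), and in low-Xist libraries -0.54 (adjusted p = 0.119). With Xist as a covariate it was -0.47 (adjusted p = 0.132), and without control replicate 1 it was 0.05 (adjusted p = 0.923). Slc7a5, which imports large neutral amino acids (Entrez 20539, chr8:121881146-121907686, minus strand), was at 58.5 to 169 CPM in controls (median 114) and at 79.0 to 172 CPM in cKO (median 130). The groups overlapped over nearly their whole range, with a log2 fold change of 0.08 (SE 0.24, 95% interval -0.44 to 0.60, edgeR adjusted p = 0.868). In low-Xist libraries it was 0.45 (adjusted p = 0.241), and it was below 0 without control replicate 5 (-0.06), cKO replicate 1 (-0.03) or cKO replicate 2 (-0.01). At this spread a change of the size found for Atf4 or Phgdh was not detectable in either transporter.

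**Figure D1:**
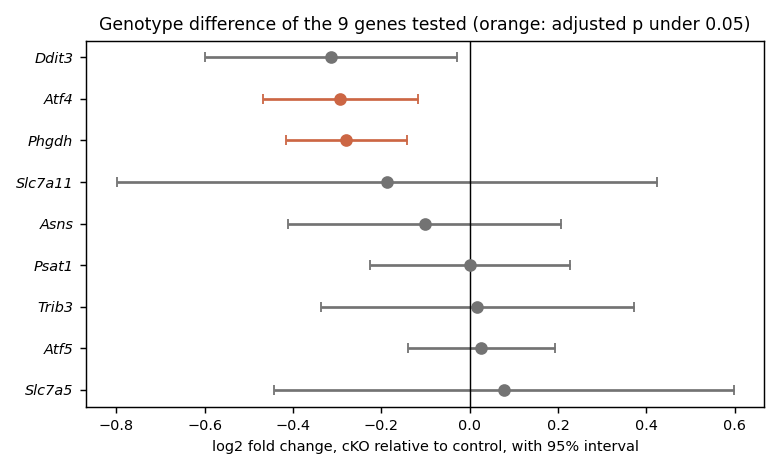
Log2 fold change (cKO relative to control) of the 9 tested genes with 95% intervals, from all 12 libraries, with the called genes in orange. The intervals of Atf4, Ddit3 and Phgdh lie below 0, and those of Slc7a11 and Slc7a5 are the widest.

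Levels were compared between genes only per kilobase of exon. In controls Atf4 was highest, at 64.6 ± 8.67 CPM per kilobase (SD, n = 6), followed by Asns at 52.2 ± 11.9, Phgdh at 48.2 ± 2.76, Slc7a5 at 34.1 ± 11.4 and Psat1 at 26.2. Atf5 (10.8) and Ddit3 (7.41) formed a middle range, and Trib3 (0.973), Slc7a11 (0.470) and Chac1 (0.180) were low. The order of the means was the same in cKO pools. In controls the ranges of neighbours in this order overlapped except between Psat1 and Atf5, between Ddit3 and Trib3 and between Slc7a11 and Chac1.

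**Figure D2:**
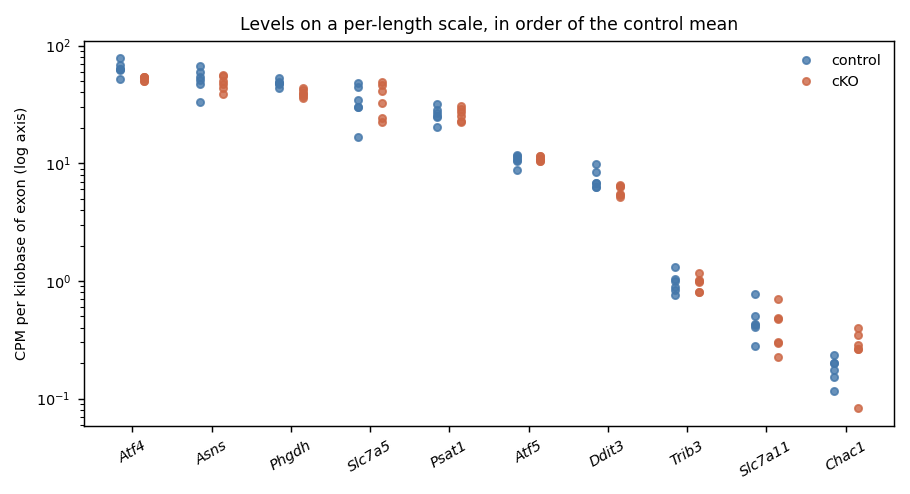
Level of the 10 genes per kilobase of exon (CPM per kb, log axis) in control and cKO pools, ordered by the control mean. The amino acid enzymes Asns, Phgdh and Psat1 lie with Atf4 and Slc7a5 at the top, and Trib3, Slc7a11 and Chac1 at the bottom.

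The rest of the pathway was described with 10 lists of 137 genes, of which 132 were tested and 12 were called by edgeR (9.09%), close to the 8.13% of all tested genes. Of these, 6 were lower and 6 higher, and the median log2 fold change was -0.03. The number of called pathway genes was 25 without control replicate 1, a fit in which 19.9% of all tested genes were called. It was 3 without control replicate 6, cKO replicate 4 or cKO replicate 5, 5 without cKO replicate 1, 3 or 6, and 7 without control replicate 2, fits in which between 5.24% and 5.80% of all tested genes were called.

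**Figure D3:**
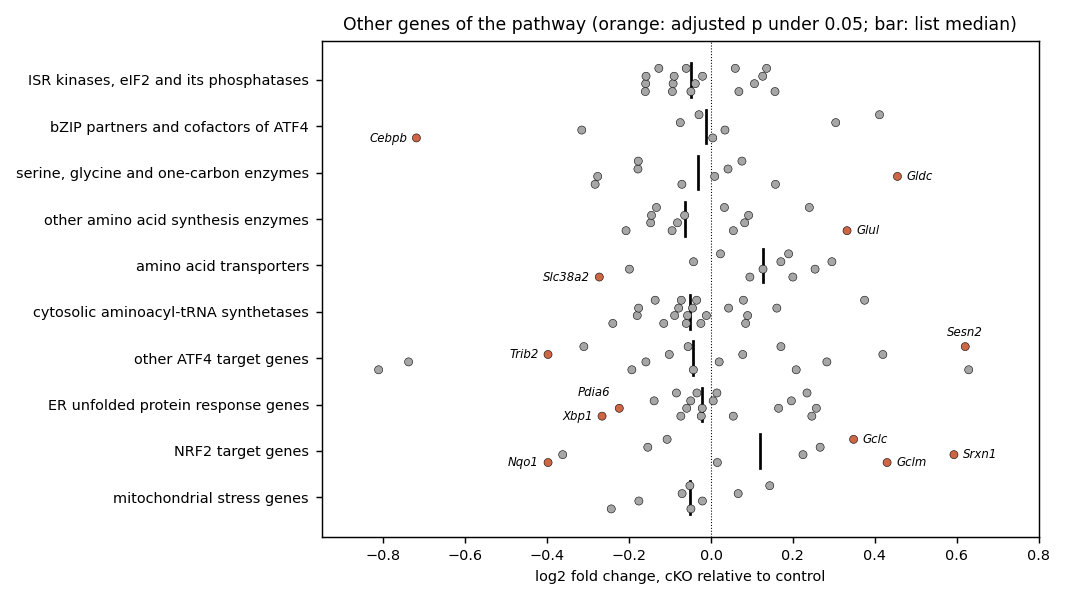
Log2 fold change of the 132 tested genes of 10 pathway lists, 1 dot per gene, with the median of each list as a bar and the 12 called genes in orange. All list medians lie between -0.06 and 0.13, and called genes are scattered over 7 lists in both directions.

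Upstream of ATF4, none of the 17 genes for eIF2 kinases and their regulators, eIF2 and eIF2B subunits and eIF2 phosphatases was called by edgeR or DESeq2, 1 had an unadjusted p under 0.05 in edgeR, and their median was -0.05. The smallest p-values belonged to Eif2b4, a subunit of the eIF2 exchange factor (log2 fold change -0.16, edgeR adjusted p = 0.119), and Ppp1r15b, an eIF2 phosphatase subunit (0.16, adjusted p = 0.245). Of 8 tested bZIP partners and cofactors, 1 was called. Cebpb, which dimerizes with ATF4, fell from 10.7 ± 1.81 to 6.39 ± 1.75 CPM (SD, n = 6), a log2 fold change of -0.72 (SE 0.17, edgeR adjusted p = 0.0175), and all 6 cKO pools lay below all controls.

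In amino acid metabolism, 1 of 10 further serine, glycine and one-carbon enzymes was called. It was Gldc, of the glycine cleavage system, which rose from 36.7 ± 6.79 to 50.5 ± 5.59 CPM (log2 fold change 0.45, SE 0.12, edgeR adjusted p = 0.0324). Among 13 other synthesis enzymes Glul, glutamine synthetase, rose from 123 ± 15.8 to 155 ± 16.3 CPM (0.33, SE 0.09, adjusted p = 0.0441). Among 11 further transporters only Slc38a2, a neutral amino acid importer, was called. It fell from 331 ± 32.6 to 274 ± 5.59 CPM (-0.27, SE 0.07, adjusted p = 0.0251), whereas 8 of the 11 were positive, with a list median of 0.13. Slc36a1 was called higher in the low-Xist libraries (0.54, edgeR adjusted p = 0.0300), and Slc7a1 was called higher with a replicate block (0.27, edgeR adjusted p = 0.0413). None of 20 cytosolic aminoacyl-tRNA synthetases was called by edgeR, with a median of -0.05 and 3 at an unadjusted p under 0.05. The smallest p-values there were those of Hars (-0.24, adjusted p = 0.0801) and Vars (0.37, adjusted p = 0.0907). Vars was called higher by DESeq2 (0.38, adjusted p = 0.0453) and in the low-Xist libraries (0.55, edgeR adjusted p = 0.0488).

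A list of further ATF4 targets also held Trib1 and Trib2, relatives of Trib3. Of its 17 tested genes 2 were called by edgeR, in opposite directions, beside 8.13% of all genes. At an unadjusted p under 0.05 stood 9, beside 25.2% of all genes. Sesn2, a leucine sensor of the mTORC1 pathway, rose from 18.4 ± 4.82 to 28.7 ± 3.23 CPM (log2 fold change 0.62, SE 0.16, edgeR adjusted p = 0.0275) and was above all controls in all 6 cKO pools. Trib2, a relative of Trib3, fell from 221 ± 19.1 to 167 ± 30.1 CPM (-0.40, SE 0.11, adjusted p = 0.0363), and was at -0.25 in the low-Xist libraries (adjusted p = 0.135). DESeq2 called 4 more, Ndrg1 (-0.81, adjusted p = 0.0109), Vldlr (-0.75, adjusted p = 0.0129) and Sqstm1 (-0.19, adjusted p = 0.0258) lower and Xpot (0.17, adjusted p = 0.0304) higher. Of 18 unfolded protein response genes, 2 were called, both lower, beside 8.13% of all tested genes called and 4.85% called lower. Of the 18, 10 were negative and 8 positive, with a median of -0.02. Xbp1, the transcription factor of the IRE1 branch, fell from 77.3 ± 3.61 to 64.2 ± 3.82 CPM (-0.27, SE 0.06, adjusted p = 0.0120), with 6 of 6 cKO pools below all controls, and Pdia6, a disulfide isomerase, from 320 ± 26.1 to 274 ± 11.7 CPM (-0.22, SE 0.06, adjusted p = 0.0462). None of 8 mitochondrial stress genes was called by edgeR, with 2 at an unadjusted p under 0.05. The smallest p-values were those of Hspa9 (0.14, adjusted p = 0.104), which DESeq2 called (adjusted p = 0.0190), and Yme1l1 (-0.24, adjusted p = 0.163).

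Of 10 targets of NRF2, the factor that shares Slc7a11 as a target with ATF4, 4 were called, 3 of them higher, beside 8.13% and 3.28% of all tested genes. A difference between lists was not tested. Gclc, the catalytic subunit of the enzyme that starts glutathione synthesis, rose from 40.9 ± 3.32 to 52.3 ± 4.48 CPM (log2 fold change 0.35, SE 0.07, edgeR adjusted p = 0.0101), above all controls in 6 of 6 pools. Its modifier subunit Gclm rose from 28.9 ± 6.30 to 39.1 ± 3.25 CPM (0.43, SE 0.12, adjusted p = 0.0451), and Srxn1, sulfiredoxin, from 6.74 ± 1.79 to 10.3 ± 1.89 CPM (0.59, SE 0.17, adjusted p = 0.0450). Nqo1, a quinone reductase that is among the best known NRF2 targets, went the other way, from 11.1 ± 1.83 to 8.39 ± 0.532 CPM (-0.40, SE 0.11, adjusted p = 0.0369). DESeq2 also called Gsr, glutathione reductase (0.27, adjusted p = 0.0227). The summed level of the list was 449 to 467 CPM in controls and 491 to 516 CPM in cKO. Of its 10 genes, 6 were positive and 4 negative, with a median of 0.12. In 4 of them the pools of the 2 genotypes did not overlap, in either direction, beside 5.52% of all genes. Nfe2l2, which encodes NRF2 and is on the list, was among the negative genes and was not called (-0.15, edgeR adjusted p = 0.282).

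Of the 12 called pathway genes, Cebpb, Xbp1 and Gclc kept their call on leaving out each library in turn. The other 9 lost it in between 5 (Sesn2) and 11 (Pdia6 and Gclm) of the 12 fits. In the low-Xist libraries 4 of the 12 passed, Glul, Slc38a2, Gclm and Srxn1, with adjusted p between 0.0336 and 0.0444, while the other 8 had adjusted p between 0.0571 and 0.135.

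Cell type markers moved along with genotype, and their part in the results above was not tested. All 5 contractile genes, Acta2, Myh11, Tagln, Cnn1 and Mylk, were called lower by edgeR (summed level 563 to 692 CPM in controls, 335 to 514 CPM in cKO). So were 4 of 6 fetal Leydig cell genes, Cyp17a1, Cyp11a1, Hsd3b1 and Insl3 (1849 to 3140 and 1035 to 1995 CPM) and 2 of 7 interstitial progenitor genes, Tcf21 and Wnt5a (1201 to 1538 and 767 to 1356 CPM). DESeq2 also called Nr5a1 (-0.31, adjusted p = 0.0164) and Pdgfra (-0.41, adjusted p = 0.0283) of these lists lower. Of 7 macrophage genes Csf1r, Cx3cr1 and C1qb were called higher by edgeR (46.6 to 70.5 and 69.4 to 84.3 CPM). DESeq2 also called Adgre1 (0.55, adjusted p = 0.0127) and C1qa (0.62, adjusted p = 0.0152) higher. None of the 7 Sertoli or 7 germ cell genes was called in all 12 libraries by edgeR or DESeq2 or had an unadjusted p under 0.05 there in edgeR. In the low-Xist libraries Nanos2, a male germ cell gene, was called higher (0.37, edgeR adjusted p = 0.0320). The 7 meiosis and ovarian germ cell genes summed to 159 to 463 CPM in controls and 230 to 992 CPM in cKO, with none called and 6 at an unadjusted p under 0.05, beside 25.2% of all genes. The 3 cKO pools with high Xist were at 462, 992 and 990 CPM and the control with high Xist at 463 CPM, whereas the low-Xist pools were at 159 to 292 CPM in controls and 230 to 253 CPM in cKO. In the other lists the single calls by edgeR were Wnt4 lower among 6 pregranulosa genes (5 of them positive, median 0.39), Tek lower among 6 endothelial genes (4 positive, median 0.02), Hbb-bs lower among 7 erythroid genes (2 positive, median -0.23) and Pax8 higher among 6 mesonephric epithelium genes (5 positive, median 0.42). DESeq2 also called the erythroid gene Hba-a2 lower (-0.40, adjusted p = 0.0275). In the low-Xist libraries Foxl2 (1.45, edgeR adjusted p = 0.00958), Fst (0.62, adjusted p = 0.0216) and Bmp2 (0.67, adjusted p = 0.0379), all on the pregranulosa list, were called higher, while Wnt4 was again lower (-0.84, adjusted p = 0.00686). Of the mesonephric list, Emx2 was called lower there (-0.33, edgeR adjusted p = 0.0454) and Pax8 was no longer called (0.42, adjusted p = 0.0808). Of the 71 marker genes in all lists none was at 0 in all libraries, and 1, Cdh16, was at 0 in 1 library.

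Within genotypes, Asns and Psat1 varied together from pool to pool. Each pool's deviation from its genotype mean (log2 CPM, 12 pools) was compared between the 9 tested genes in 36 pairs, a family chosen after the data had been seen, and 1 passed an adjusted p of 0.05. That pair was Asns and Psat1 (Pearson r = 0.89, permutation p = 0.00065, adjusted p = 0.0234, Spearman rho = 0.78, p = 0.00604, adjusted p = 0.0934), and r was 0.76 without control replicates 1 and 5, the pools farthest from the median. Slc7a5 went against Asns (r = -0.83, permutation p = 0.00278, adjusted p = 0.05004, rho = -0.85, adjusted p = 0.0518), and r was -0.76 without cKO replicate 5 and control replicate 5. With the summed germ cell markers, r was 0.90 for Asns, 0.91 for Psat1 and -0.84 for Slc7a5 (permutation adjusted p = 0.0290, 0.0149 and 0.0290, over 99 pairs of a gene and a marker list). Leaving out the 2 farthest pools, control replicates 1 and 5, gave 0.68, 0.85 and -0.79. Of the 99 pairs 2 more passed by Pearson's r. Asns had r = -0.89 with the endothelial markers (adjusted p = 0.0290, and -0.64 without cKO replicate 2 and control replicate 1). Phgdh had r = -0.84 with the mesonephric and supporting-like epithelium markers (adjusted p = 0.0444, and -0.72 without cKO replicate 5 and control replicate 1). By Spearman's rho, which was 0.81, 0.86 and -0.85 for the germ cell pairs and -0.76 and -0.85 for the other 2, none of the 5 passed (permutation adjusted p between 0.0795 and 0.112). The part of cell content in these levels was not tested.

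**Figure D4:**
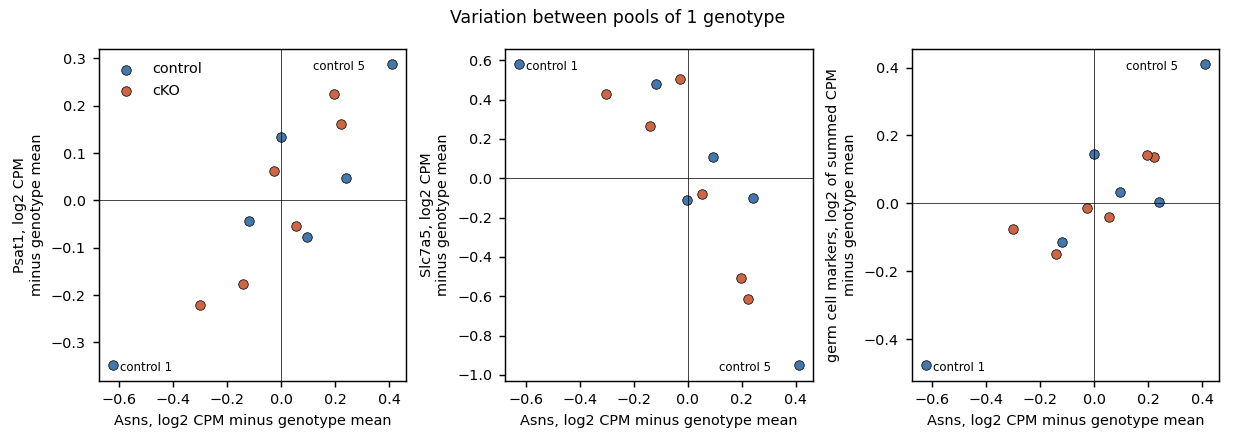
Deviation of each of the 12 pools from its genotype mean (log2 CPM) for Asns against Psat1, Slc7a5 and the summed germ cell markers. Pools high in Asns are high in Psat1 (r = 0.89) and low in Slc7a5 (r = -0.83).

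Many transcripts shared such patterns. Of 10544 genes averaging 10 CPM or more, 1198 had r above 0.8 with Atf4 and 1021 had r below -0.8, and the median size of r was 0.60. For Asns these counts were 623 and 386. Among the genes most like Atf4 over the 12 pools were Rbm3 (r = 0.98), a cold-inducible RNA-binding protein, Gng10 (0.98), a G protein subunit, Birc5 (0.97), the mitotic protein survivin, and Ppid (0.97), a cyclophilin. None of them is among the 10 genes. Atf4 itself had r = 0.69 with Asns (permutation p = 0.0668, adjusted p = 0.200, rho = 0.27, p = 0.443, adjusted p = 0.760). That value rested on control replicates 1 and 5, without which r was -0.29.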

How the data were processed

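The deposited values were raw counts per gene. The authors pooled 3 testes per library, made stranded mRNA libraries, trimmed reads with Trim Galore 0.6.7, aligned them to mm10 with STAR 2.5 and counted them by strand on RefSeq Curated genes with featureCounts (Subread 1.5.0-p1). The genes and lists described were chosen with earlier results of these data known. Named pathway genes were those called, or the 2 with the smallest p where a list had none. Of the 5 genes most correlated with Atf4, 1 is not reported here. The 12 libraries were grouped by genotype label. In R 4.3.3 with edgeR 4.0.16, counts were scaled by TMM and filtered by filterByExpr (minimum count 10, minimum total 15), and 6 control and 6 cKO pools were compared by the quasi-likelihood F test without covariates (Benjamini-Hochberg, 0.05), after tests on simulated data. CPM used TMM-scaled library sizes, and log2 CPM a prior count of 2. The SE is the log2 fold change over the square root of F. Replicates are pools, so p-values measure the spread between pools. Alternatives were other scalings and filters, DESeq2 1.42.0, limma-voom (3.58.1), a replicate block, the 8 libraries with Xist under 100 CPM, Xist as a covariate and leaving out each library. Correlations used 100000 permutations within genotype. Exon lengths came from GENCODE annotation of transcripts linked to RefSeq, and sequences from RefSeq.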

Additional observations from a re-analysis of the deposited data

Results flagged for a closer look

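None of the 10 genes had a pool set apart from the other 5 of its genotype by the gap test (Dixon's criterion, 20 groups). Among 42 groups of summed gene lists 2 did, both through control replicate 1, which is also the control library with high Xist and the control pool lowest in Atf4, Phgdh, Asns, Psat1 and Chac1 and highest in Slc7a11 and Slc7a5. The summed pregranulosa markers were at 315 CPM in that pool, whereas the other 5 controls were between 80.0 and 92.8 CPM. The 3 cKO pools with high Xist were at 141, 207 and 193 CPM, above the 66.7 to 74.4 CPM of the other 3. The summed endothelial markers were at 494 CPM, whereas the other 5 were between 343 and 391 CPM. Chance alone sets apart about 1 in 20 groups. The part of this pool's composition in these levels was not tested.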

How the results depend on the processing

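The count of the 10 genes called lower was 1 instead of 2 under upper quartile scaling, limma-voom, the replicate block, low-Xist libraries and the Xist covariate, and 1 to 2 on leaving out single libraries. Called pathway genes numbered 7 with no filter, 19 with DESeq2, 6 in low-Xist libraries and 3 to 25 on leaving out single libraries. All called genes numbered 1919 with DESeq2 and 816 to 3106 on leaving out single libraries, the highest without control replicate 1. The cause was not tested, beyond fewer samples in some settings. Genes near 0 changed sign. Psat1 was -0.00103 with DESeq2 size factors, -0.00636 with the filter at a mean of 1 CPM, -0.00126 in DESeq2 and -0.13 in low-Xist libraries, and Trib3 was -0.00558 with the Xist covariate. On leaving out single libraries the ranges were -0.0656 to 0.0687 for Psat1, -0.0572 to 0.12 for Trib3, -0.42 to 0.0457 for Slc7a11, -0.0179 to 0.0529 for Atf5 and -0.0558 to 0.20 for Slc7a5. Counts were lowest for Chac1, with 1 to 26 per library.

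Same-numbered pools did not deviate together (r between -0.33 and 0.24), and no pool correlated best with its own number. With the replicate block 931 genes and 7 pathway genes were called, Vars (adjusted p = 0.0460) and Slc7a1 (adjusted p = 0.0413) among them. Gldc, Slc38a2, Sesn2, Pdia6, Nqo1, Gclm and Srxn1 lost their call (adjusted p between 0.0606 and 0.0915), and Atf4 had an adjusted p of 0.0628 in edgeR.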
